A study of Homo sapiens with 2 samples.

Results

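Genes of the hemidesmosome and of laminin-332 were compared between HSC-3 cells cultured on top of Myogel and the same cells on plastic. The group held 8 genes, and a probe set was counted when the platform annotation gave exactly 1 gene symbol for it and that symbol was ITGA6, ITGB4, CD151, DST, PLEC, COL17A1, LAMA3 or LAMB3. This gave 21 probe sets for 6 of the genes, of 54613 probe sets and 19775 genes in all. No probe set was named for COL17A1 or LAMA3, and the values of these 2 genes were not analysed here.

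HSC-3 is an established line from a squamous cell carcinoma of the human tongue with aggressive behaviour, and in both groups the cells stably carried RFP, brought in with a lentivirus that holds a non-coding control sequence, and had been selected with puromycin. Both groups grew in the same DMEM/F-12 medium with heat inactivated fetal bovine serum, hydrocortisone and ascorbic acid. One group sat on uncoated plastic and the other on a coating of Myogel, a soluble extract of human uterine leiomyoma, a benign smooth muscle tumour. A protocol label gives uncoated plates for both, while the title and the source name give Myogel for the second group, and the title was followed. In each group 90000 cells were seeded, RNA was harvested the next day, equal amounts of RNA from 3 wells were combined, and 1 µg of the pool went to a single array of the Affymetrix type U133 Plus 2.0. With 2 arrays and no replicates, no p-value is given.

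The hemidesmosome is the junction that fastens the basal cell of a squamous epithelium to the basement membrane. In it the integrin alpha 6 beta 4 binds laminin-332 outside the cell, and plectin and the epithelial form of dystonin tie the integrin to the keratin filaments inside. Laminin-332 is a protein of the basement membrane that holds the chains of LAMA3 and LAMB3, secreted by the epithelial cells themselves, and squamous carcinomas often deposit it at their invasive edge. Inherited loss of these proteins causes blistering of skin and mucosa.

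Both laminin chain genes of the group hold the letters of the AP-1 motif upstream of a transcript start, AP-1 being the transcription factor of FOS and JUN subunits, and the windows are shown because no other member window held it. The motif TGANTCA, which reads the same on both strands, was searched in the 250 bases before each start of the RefSeq promoter table (GRCh38.p14). It was present in 2 of 10 windows of the 5 member genes that the table matched (ITGA6, DST, COL17A1, LAMA3 and LAMB3), against 6.57% of all 35116 windows. Capitals mark the motif in the window of LAMB3 at chr1:209651375-209651624, minus strand, and in that of LAMA3 at chr18:23872770-23873019, plus strand, each written 5′ to 3′ and ending at the base before the start.
LAMB3: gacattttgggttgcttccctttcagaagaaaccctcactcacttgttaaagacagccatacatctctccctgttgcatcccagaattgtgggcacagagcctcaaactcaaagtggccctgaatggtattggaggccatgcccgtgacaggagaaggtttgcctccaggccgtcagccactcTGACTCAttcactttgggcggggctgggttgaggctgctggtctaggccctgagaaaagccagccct
LAMA3: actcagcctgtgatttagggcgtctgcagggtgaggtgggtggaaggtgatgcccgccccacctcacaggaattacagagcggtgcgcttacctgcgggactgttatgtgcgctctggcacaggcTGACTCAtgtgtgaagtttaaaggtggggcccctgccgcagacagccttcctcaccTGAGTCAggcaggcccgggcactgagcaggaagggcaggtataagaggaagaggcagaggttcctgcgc
The first base of the motif lay 67 bases before the start in LAMB3, and 125 and 69 bases before it in LAMA3. LAMB3 has 3 windows in the table, and the other 2 do not hold the motif. The match describes the letters only, and no binding was measured.

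Values are the intensities that the authors deposited, on a linear scale with a floor of 1. The fold change (FC) is the Myogel value over the plastic value, and FC 1.5 or more in either direction is the threshold, a fold change that the study names, applied here with no filter on dim probe sets. Over all probe sets the median log2 FC was -0.11, so that a small negative value was common among probe sets as a whole. Spread between probe sets grew as signal fell, with an SD of the log2 FC of 0.19 in the highest decile of signal, 0.59 in the sixth and 2.72 in the second. Since no replicate gives an error, each log2 FC is set beside the interval into which 95% of its 1000 closest probe sets by mean signal fell, called the range for its signal. The label of the cells was checked against 6 measured markers of squamous epithelium, among them KRT14 (18856 on plastic, 18224 on Myogel), EPCAM (4886 and 4998) and DSG3 (1595 and 1169). All 6 had values above the median of all probe sets on both arrays, which was 59.7 on plastic and 52.5 on Myogel.

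Of the 6 measured genes, 5 had nearly the same values on both surfaces by the brightest probe set, although another bright probe set of DST was lower on Myogel. In their brightest probe sets ITGA6, ITGB4, CD151, DST and LAMB3 had log2 FCs between -0.13 and 0.03, all within the spread for their signal. PLEC was lower on Myogel, in dim probe sets. Of the 21 probe sets, 6 passed FC 1.5 as lower on Myogel, 1 passed it as higher and 14 did not pass. These 7 make 33.3%, where the same threshold was met by 38.0% of all probe sets (24.2% lower and 13.8% higher), so the share is near the background. Of the 10 member probe sets that reached 100 on either array 1 passed, 216918_s_at of DST, where 9.55% of all 22889 such probe sets did. The other 6 that passed were among the 11 probe sets under 100. The median log2 FC of the 21 probe sets was -0.14, beside -0.11 for all probe sets, and that of the 10 brighter ones was -0.13, beside -0.05 for all that reached 100.

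**Figure D1:**
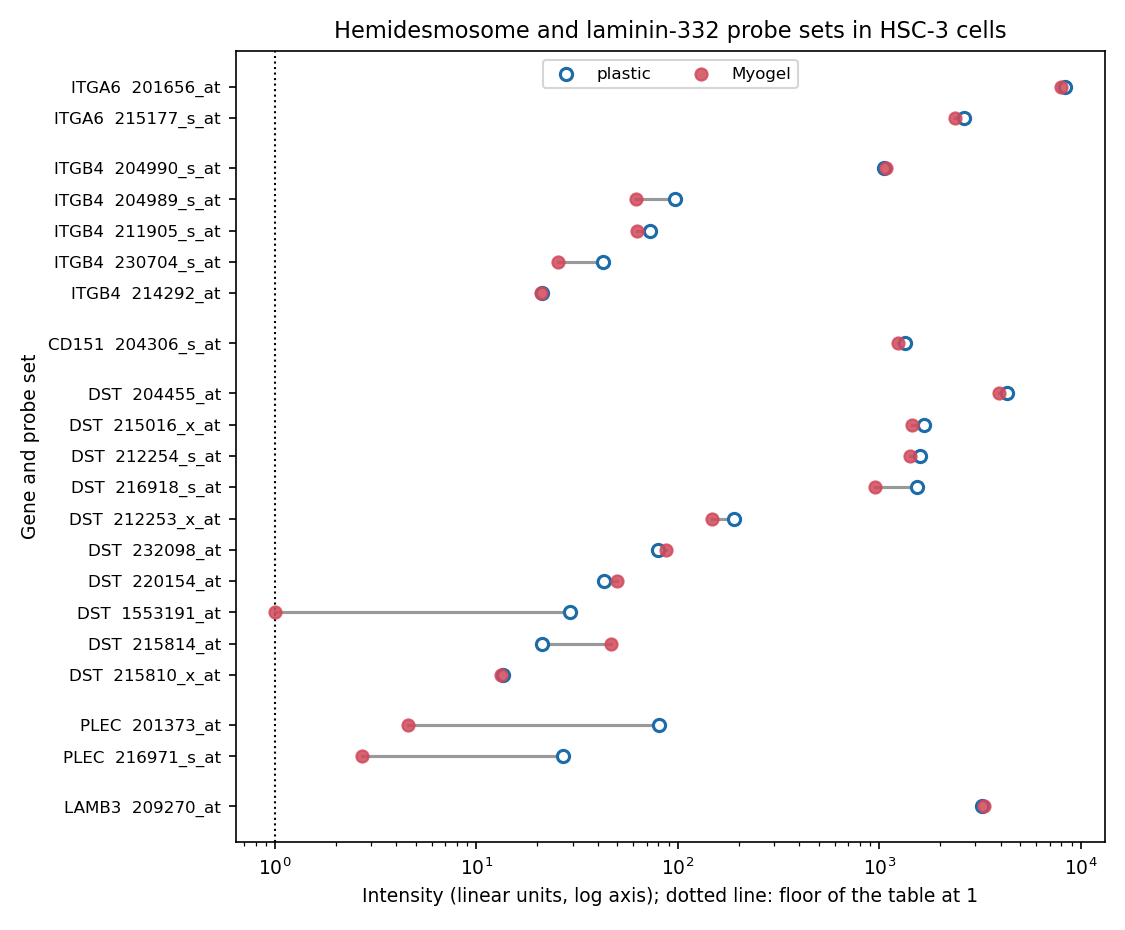
Intensity in linear units (x axis, log scale) of the 21 probe sets of ITGA6, ITGB4, CD151, DST, PLEC and LAMB3 (y axis), with open blue circles for the array of cells on plastic, red circles for that on Myogel and a grey line joining them. The bright probe sets overlap or nearly so, apart from 216918_s_at of DST (1540 and 955), and the long lines belong to dim probe sets of PLEC and to 1553191_at of DST, which lies at the floor of 1 on Myogel.

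The receptor integrin showed little difference. ITGA6 encodes the alpha 6 chain, which binds the end of the laminin molecule. Its probe set 201656_at had 8371 on plastic and 8005 on Myogel, a log2 FC of -0.06 in a range for its signal of -0.27 to 0.17. The other, 215177_s_at, had 2620 on plastic and 2385 on Myogel, with a log2 FC of -0.14. Both probe sets of ITGA6 were thus slightly lower on Myogel, by less than the spread of their neighbours in signal, and 201656_at had a log2 FC of 0.04 when the median log2 ratio of all probe sets was set to 0.

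ITGB4 encodes the beta 4 chain, whose long cytoplasmic tail recruits plectin and sets this integrin apart from those of focal adhesions. Its brightest probe set, 204990_s_at, had 1051 on plastic and 1073 on Myogel, a log2 FC of 0.03. The other 4 probe sets of ITGB4 were all under 100 and, as deposited, all lower on Myogel. In 204989_s_at the value was 97.1 on plastic and 62.3 on Myogel, 1.56-fold lower, and in 230704_s_at it was 42.7 and 25.5, or 1.68-fold lower. In 211905_s_at the values were 73.1 and 62.8, and in 214292_at they were 21.1 and 20.9. Each of these differences lay inside the range for its signal, which for 204989_s_at ran from -1.18 to 0.97 on the log2 scale. The 2 that passed FC 1.5 as deposited had log2 FCs of -0.48 and -0.47 after quantile normalization, within the threshold. With the median log2 ratio set to 0, 204989_s_at had -0.53, within it, and 230704_s_at had -0.64, still past it. For 214292_at the log2 FC was -0.01 as deposited, 0.35 after quantile normalization, 0.36 after loess centring and 0.10 with the median log2 ratio set to 0, so that its direction depended on the scaling. Averaged over its 5 probe sets, the log2 FC of ITGB4 as deposited was -0.32.

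CD151 encodes a tetraspanin that associates with laminin-binding integrins in the cell membrane. It had 1 probe set, 204306_s_at, with 1340 on plastic and 1236 on Myogel. The log2 FC of -0.12 lay inside the range for its signal, from -0.52 to 0.47, and was -0.01 with the median log2 ratio set to 0.

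Among the plakins, which link the integrin to keratin filaments, DST had 10 probe sets and was the member with the largest difference in a bright probe set. DST encodes dystonin, of which the epithelial form, BPAG1e, sits in the hemidesmosome, while longer forms of muscle and nerve cells bind actin and microtubules. The brightest probe set, 204455_at, whose accession is that of the RefSeq transcript for the epithelial form, had 4284 on plastic and 3928 on Myogel, a log2 FC of -0.13. Close to it lay 215016_x_at (1661 and 1454, log2 FC -0.19) and 212254_s_at (1586 and 1412, log2 FC -0.17). These 3 probe sets were slightly lower on Myogel, inside the ranges for their signal.

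The fourth bright probe set of DST stood apart. In 216918_s_at the value was 1540 on plastic and 955 on Myogel, 1.61-fold lower, with a log2 FC of -0.69 outside the range for its signal from -0.51 to 0.48. It was the only member probe set that passed FC 1.5 and also differed by 100 linear units or more, as 1.57% of all probe sets did. Its log2 FC was -0.67 after quantile normalization or loess centring and -0.58 with the median log2 ratio set to 0, the last just within FC 1.5. The suffix _s_at marks a probe set that may detect several transcripts, and which forms of DST it detects is not given in the sources used here. Whether a form of DST or the probe set alone differed was not tested.

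The remaining probe sets of DST were dimmer and went both ways. In 212253_x_at, which had 191 on plastic and 147 on Myogel, the log2 FC was -0.37. Under 100 on both arrays, 232098_at (79.6 and 87.4) and 220154_at (42.8 and 49.9) were slightly higher on Myogel, and 215810_x_at (13.6 and 13.2) was nearly equal. The 2 that passed FC 1.5 in this range were opposite in direction, since 215814_at had 21.0 on plastic and 46.7 on Myogel, while 1553191_at had 29.2 on plastic and stood at the floor on Myogel, against which a fold change has no fixed size. Over the 10 probe sets, 7 had a log2 FC below 0 and 3 above 0.

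PLEC encodes plectin, the large linker that binds the beta 4 tail on one side and keratins on the other. Its probe set 201373_at had 80.9 on plastic and 4.58 on Myogel, and 216971_s_at had 27.0 on plastic and 2.69 on Myogel. Both probe sets of PLEC were lower on Myogel, with log2 FCs of -4.14 and -3.33. The first lay outside the range for its signal, from -2.46 to 2.19, and the second inside its range, from -4.32 to 4.03. Neither reached 100 on either array, and both Myogel values lay near the floor, so that the size of the fold change depends on how low values are treated. With 50 linear units added to both arrays the log2 FC of 201373_at was -1.26, and that of 216971_s_at was -0.55, within FC 1.5. In linear units the differences were 76.4 and 24.3. PLEC was the only one of the 6 genes whose brightest probe set passed FC 1.5, where 27.3% of all 19775 genes did.

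LAMB3 encodes the beta 3 chain of laminin-332, the ligand of the junction. It had 1 probe set, 209270_at, with 3246 on plastic and 3311 on Myogel. The log2 FC of 0.03 lay inside the range for its signal, from -0.37 to 0.35. A window of this gene printed above holds the AP-1 motif, and any link between the motif and these values was not tested.

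**Figure D2:**
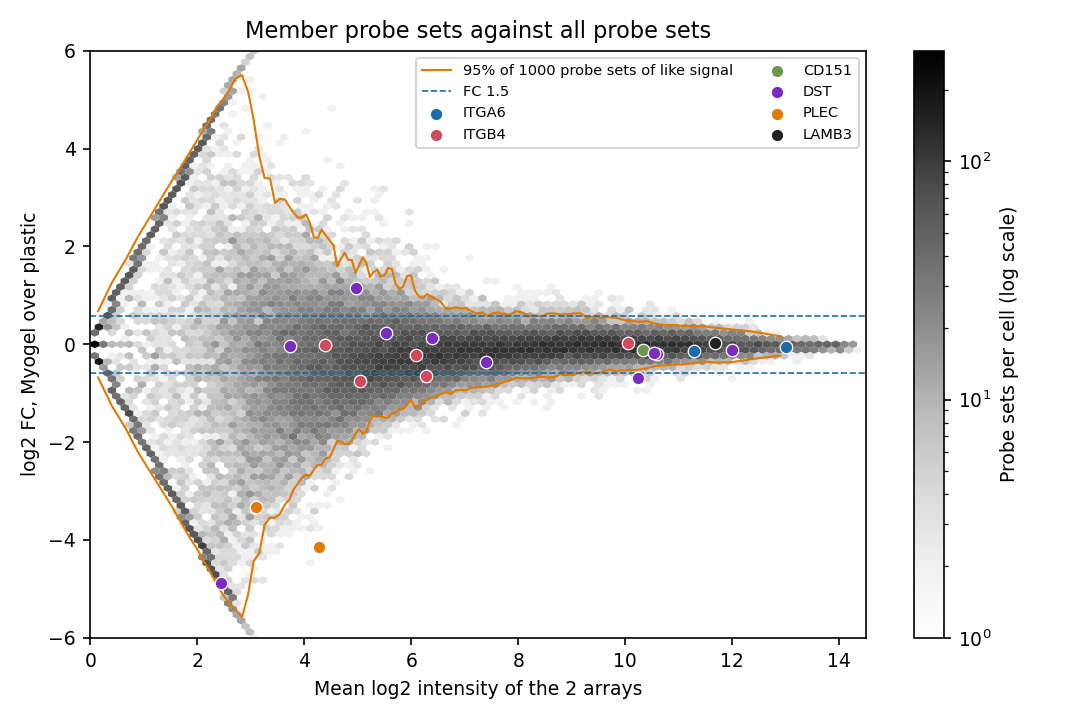
Difference between the surfaces as log2 FC (y axis; above 0, higher on Myogel; points beyond the axis are not drawn) against the mean log2 intensity of the 2 arrays (x axis) for all probe sets in grey shade, with the member probe sets as coloured points. Orange lines hold 95% of 1000 probe sets of like signal and dashed blue lines mark FC 1.5; of the member points, 216918_s_at of DST and 201373_at of PLEC lie outside the orange lines, and 19 lie inside.

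Over the 21 probe sets, 2 lay outside the 95% range for their signal, and these were 216918_s_at of DST and 201373_at of PLEC, both lower on Myogel. Such a range leaves some probe sets outside it by construction. A log2 FC below 0 was seen in 16 probe sets and above 0 in 5, where the median of all probe sets was itself below 0, at -0.11. With the median log2 ratio of all probe sets set to 0 the numbers were 13 and 8, and after quantile normalization or loess centring 14 and 7. The number lower by FC 1.5 was then 4 in each case, and the number higher stayed at 1. Of all probe sets, 18.2% were lower and 18.2% higher after quantile normalization or loess centring. With the median log2 ratio set to 0, 21.2% were lower and 15.7% higher. The 4 of 21 that were lower are thus near the share over all probe sets, and the 1 higher is under it.

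**Figure D3:**
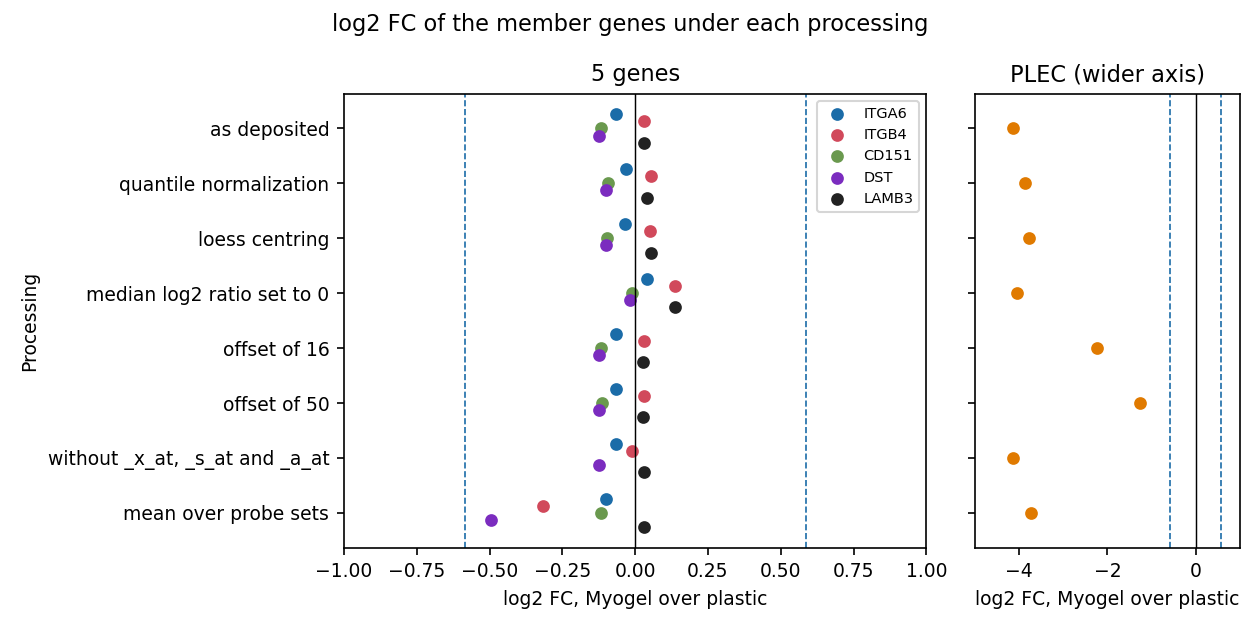
The log2 FC of Myogel over plastic (x axis) of the 6 genes under 8 ways of processing (y axis), each point being the brightest probe set or, in the last line, the mean over the probe sets of the gene, with dashed lines at FC 1.5 and a wider axis for PLEC. ITGA6, ITGB4, CD151, DST and LAMB3 stay within FC 1.5 throughout, while PLEC moves from -4.14 to -1.26 as an offset is added. CD151 has no point where the _x_at, _s_at and _a_at sets are omitted, since its 1 probe set is among them.

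The genes that act with the hemidesmosome had mostly similar values on both surfaces. Of 60 genes in 7 lists, 56 were measured, and by the brightest probe set 1 passed FC 1.5 as higher on Myogel, 2 passed it as lower and 53 did not pass (9.71% and 17.5% of all genes were higher and lower). The shares over all genes include many dim ones, while only 3 of the 56 lay under the median signal. Among all probe sets that reached 100, 9.55% passed FC 1.5 in either direction. The median log2 FC of the 56 partner genes was -0.03, beside -0.07 for all 19775 genes. Of the 3 that passed, TLL1 (25.1 on plastic, 11.9 on Myogel) and PHLDB1 (1.71 and 3.89) were dim and were chosen once their values were known. The third, PRKCD, a protein kinase C, had 134 on plastic and 74.9 on Myogel, 1.79-fold lower, inside the range for its signal from -0.98 to 0.71 on the log2 scale.

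In the list for the processing and anchoring of laminin-332, 6 genes were measured, with 1 lower and 0 higher. MMP14, a membrane protease that cleaves proteins of the matrix, differed most at or above the median signal, with 1983 on plastic and 2400 on Myogel. Of the 3 other probe sets of MMP14, only 1 was also higher on Myogel, the next brightest with 969 and 1348. COL7A1, the collagen of the anchoring fibrils below the hemidesmosome chosen once its values were known, had 1622 and 1595. Among 11 other laminin-binding receptors and tetraspanins 0 passed FC 1.5, and BCAM, a receptor for the laminin alpha 5 chain, differed most with 759 on plastic and 607 on Myogel. The other probe set of BCAM was dim and higher on Myogel, with 12.35 and 26.62. ITGA3 and ITGB1, which form the other integrin for laminin-332 and were likewise chosen with their values known, had 1649 and 1594, and 13152 and 13255. Of the 6 other probe sets of ITGB1, only 2 were also higher on Myogel. The next brightest of ITGB1 had 8095 on plastic and 6302 on Myogel, a log2 FC of -0.36. For CD63, of like mean signal (7108 and 7337), the range ran from -0.30 to 0.21, and -0.36 lies outside that range.

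Among 15 partners of integrin beta 4 in signalling, 1 was lower, the PRKCD named above, and 14 lay within FC 1.5. Of 5 other plakins 0 passed, and EPPK1, epiplakin, differed most with 173 on plastic and 142 on Myogel, lower in all 5 of its probe sets. Of 7 keratins 0 passed. KRT15, a keratin of basal cells, differed most with 6447 on plastic and 4306 on Myogel, a log2 FC of -0.58, just short of the threshold and outside the range for its signal, from -0.30 to 0.26 on the log2 scale. KRT5, the partner of KRT14 in basal cells and chosen with its values known, had 11907 on plastic and 10125 on Myogel, a log2 FC of -0.23 at the edge of its range, from -0.22 to 0.14, and outside it. The other 5 keratins lay inside their ranges.

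In the list for the capture of microtubules at laminin-332 adhesions, 7 genes were measured and the median log2 FC was 0.21. KANK2, which links talin to the cortical complex, differed most at or above the median signal, with 816 on plastic and 1017 on Myogel. This was within the spread of like signal, and its other 2 probe sets were lower on Myogel. Of 5 transcription factors of the basal cell 0 passed, and SOX2 differed most with 207 on plastic and 151 on Myogel.

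**Figure D4:**
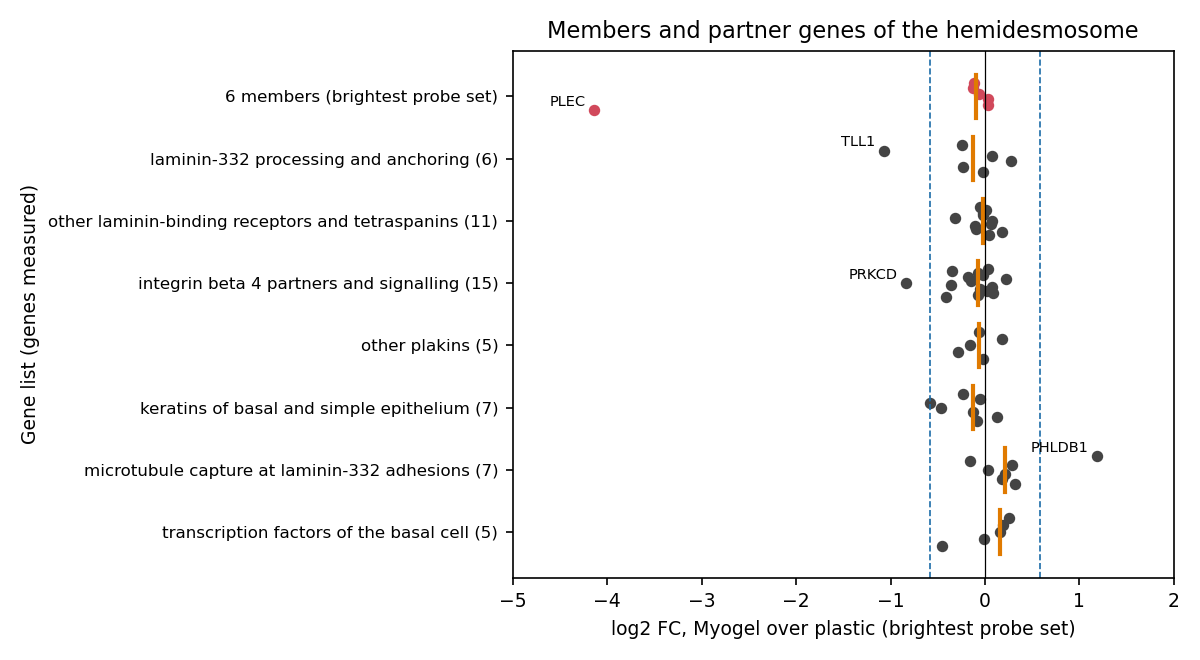
The log2 FC of Myogel over plastic in the brightest probe set (x axis) of the 6 measured members in red and of the 7 lists of partner genes in black (y axis, with the number of genes measured), with orange bars for the medians and dashed lines at FC 1.5. PLEC at -4.14, TLL1 at -1.07, PRKCD at -0.84 and PHLDB1 at 1.19 lie beyond the dashed lines and all other genes within them.

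Myogel is made from smooth muscle tissue, and several members are also expressed in muscle, fibroblasts and endothelium, so markers of these cells were read beside them. The 8 smooth muscle markers summed to 756 linear units on plastic and 780 on Myogel, with 1 higher and 2 lower by FC 1.5. Their median log2 FC was 0.16, and the brightest, ACTG2, had 240 on plastic and 272 on Myogel. The other probe set of ACTG2 was lower on Myogel, with 25.3 and 18.0. Among the 2 lower was CNN1, dim at 17.6 on plastic and at the floor of 1 on Myogel. The other was SMTN, above the median signal, with 136 on plastic and 88.4 on Myogel. Its log2 FC of -0.62 lay inside the range for its signal, from -0.94 to 0.76, and its 2 other probe sets were also lower. The 6 fibroblast markers summed to 709 and 711, with 1 higher and 0 lower, and the brightest, COL1A1, had 431 and 454. The 1 higher was COL1A2, dim at 14.0 and 21.7. Neither of its other 2 probe sets was higher on Myogel, and the brighter of them had 27.1 on plastic and 7.71 on Myogel. The 6 endothelial markers summed to 429 and 335, with 1 higher and 4 lower, and the 3 measured blood markers to 308 and 297, with 0 higher and 1 lower. Of the 6 endothelial markers 4 lay under the median signal, and all 6 lay inside the range for their signal. Over all genes 9.71% were higher and 17.5% lower by FC 1.5. The 6 squamous markers summed to 57879 and 54897. The part of RNA from other cells in the member values cannot be told apart on 2 pooled arrays and was not tested. As 1 µg of RNA went to each array, the values do not measure the number of cells or the RNA per cell.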

How the data were processed

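Gene expression was measured with a single Affymetrix U133 Plus 2.0 array for each of the surfaces. The intensity values deposited by the authors came from dChip. Its version and model, and any scaling of one array to the other, were not stated in the sources used here. A floor of 1 was held by 2414 of 54613 probe sets for plastic and 2581 for Myogel, and the median was 59.7 and 52.5. The 62 control probe sets were left out. No detection calls were used, and the number of arrays limits the precision.

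Probe sets were named from the platform annotation, and current symbols were looked up by Entrez identifier in a RefSeq table (GRCh38.p14). Of them 41091 had 1 gene symbol, 1801 had several and 11721 are unnamed here. For a value per gene the brightest probe set (mean of both log2 values) was taken. FC 1.5 or more, a fold change that the study names, was used alone, with no filter on dim probe sets, and no test was made. The median signal, used in the rule for named genes, was 53.8, the median over probe sets of the geometric mean of the 2 arrays. All members were described with every probe set, and of each partner list the genes past FC 1.5 at or above the median signal, or else the one with the largest difference there. With 2 arrays no likeness of pattern between genes can be measured. One partner gene is not reported here. Members and lists were chosen with earlier results of these data known. The alternatives were loess centring (span 0.3), a shift of the median log2 ratio to 0, quantile normalization, offsets of 16 and 50, FC 1.2 and FC 2, a difference of 100 linear units, a filter on low signal, omitting probe sets whose suffix (_x_at, _s_at or _a_at) marks several transcripts, the mean over probe sets and any probe set of a gene. Scripts used statsmodels 0.14.6, pandas 2.3.3, numpy 2.4.6 and matplotlib 3.10.9 (Python 3.11.15) and were tested on simulated data. The simulation placed changes only at or above the median signal and capped the spread, so it says nothing on dim probe sets.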

Additional observations from a re-analysis of the deposited data

How the results depend on the processing

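No paired analysis was possible because each surface is 1 array, and no array could be left out. No member value past FC 1.5 changed its direction under any alternative. Quantile normalization, loess centring and the median log2 ratio set to 0 kept every count past FC 1.5, over the members and over all partner lists, within 1.5 times, while the number of member probe sets with a log2 FC above 0 went from 5 to 8 with the median set to 0. The log2 FC of PLEC was -2.24 with an offset of 16 and -1.26 with one of 50, as an offset shrinks low values by construction. With the mean over probe sets, into which dim probe sets enter, the log2 FC was -0.49 for DST and -0.32 for ITGB4. Of the member probe sets, 0 were higher and 3 lower with an offset of 50 or with the filter on low signal, 3 were lower with FC 2, 0 were higher and 1 lower with a difference of 100 linear units, and 2 were lower when the _x_at, _s_at and _a_at sets were omitted. Of the member genes, 0 were lower with a difference of 100 linear units, and 1 was higher and 3 lower when any probe set could count. Of the partner genes, 4 were higher and 10 lower with FC 1.2, 4 higher and 8 lower by the mean of all probe sets, 4 higher and 4 lower when the _x_at, _s_at and _a_at sets were omitted, 0 higher and 1 lower with an offset of 16 or with the filter, 0 and 0 with an offset of 50 or with the difference of 100, and 1 lower with FC 2. The cause of these shifts was not tested where the alternative does not itself set it. Signal near the floor limits what can be read for PLEC and for the probe sets under 100.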
